A study of Gallus gallus with 4 samples.

Results

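Breast muscle of light Xinghua hens was compared with breast muscle of light Recessive White Rock hens at 7 weeks of age. The tested pool, XHl, held RNA of 3 female Xinghua birds with low body weight (207.6 ± 11.1 g; the labels do not say which kind of error is given), a slow-growing Chinese breed. The pool it was set against, WRRl, held RNA of 3 female White Rock birds with low body weight (695.0 ± 24.4 g), a fast-growing breed. The heavy birds of the same breeds, XHh (305.8 ± 23.3 g) and WRRh (1064.0 ± 11.1 g), gave 1 pool each and were used to show where the light pools differed. All birds were caged and fed freely, and no group received a treatment. Each pool was sequenced as 1 library, so the differences below have no replicate check and no p-value, and what a single bird added to its pool cannot be told apart. The breeds came from different suppliers, so breed and supplier cannot be told apart either. In whole muscle, fewer cells of a type and less RNA per cell cannot be told apart.

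Of 17934 gene IDs in the tables, 12290 were above 0 in both light pools. Of these, 1755 had a mean under 1 FPKM (the fragments that map to a gene, divided by its length and by the depth of the library), which left 10535 genes to compare. A further 4502 IDs were at 0 in both light pools and 1142 were at 0 in just 1 of them. Ratios are XHl over WRRl on the log2(FPKM + 1) scale, which understates the difference of low genes. At low values, FPKM moved in steps of single fragments, and these steps showed XHl to be about 1.8 times as deep as WRRl, so low values were less finely resolved in WRRl. The tissue label was checked with the fast sarcomere genes, whose summed level was 41786 FPKM in XHl and 39940 FPKM in WRRl. MYL1, a light chain of fast myosin, stood at 16051 FPKM in XHl and 14605 FPKM in WRRl.

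Muscle mass follows the balance of protein synthesis and breakdown. Much of the breakdown runs through the ubiquitin-proteasome system, in which muscle E3 ligases such as atrogin-1 (FBXO32) and MuRF1 (TRIM63) mark proteins for the proteasome, and through autophagy, which delivers them to lysosomes. FOXO transcription factors, held back by insulin and IGF signalling, switch on the genes of both routes and are known for their part in muscle wasting. Muscle also holds fibroblasts, fat cells, vessels and immune cells, whose transcripts reach a whole-tissue library beside those of the fibres.

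More genes were lower in XHl than were higher. At least 2-fold higher in XHl were 193 genes (1.83% of those tested) and at least 2-fold lower were 1294 (12.3%). At 4-fold the counts were 20 genes higher (0.19%) and 211 lower (2.0%). The median ratio over all genes tested was −0.23, and median-of-ratios scaling moved the light ratios by 0.25, to a median of −0.01. With that scaling the split was 341 genes higher (3.25%) and 885 lower (8.44%). Lower genes thus outnumbered higher ones with either scaling, although by a narrower margin after it. In the heavy pools 199 genes were at least 2-fold higher in XHh than in WRRh (1.93%) and 753 were lower (7.29%), with a median of −0.25.

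The 193 higher genes had a median level of 30.7 FPKM in XHl and 11.2 FPKM in WRRl, while the 1294 lower genes had a median of 2.77 FPKM in XHl and 9.91 FPKM in WRRl. Among 186 higher genes measured in all 4 libraries, 88 were also at least 2-fold higher in the heavy pools, 80 went the same way by less, and 18 went the other way or did not differ. Among 1201 lower genes the counts were 439, 712 and 50. At the edge of the 2-fold limit, FMOD (12.4 FPKM in XHl and 5.70 FPKM in WRRl) fell inside and CXorf23 (22.1 FPKM in XHl and 10.6 FPKM in WRRl) outside. PHLDA2 (15.5 FPKM in XHl and 32.1 FPKM in WRRl) and SLC35E3 (4.31 FPKM in XHl and 9.62 FPKM in WRRl) stood on either side of the lower limit.

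**Figure D1:**
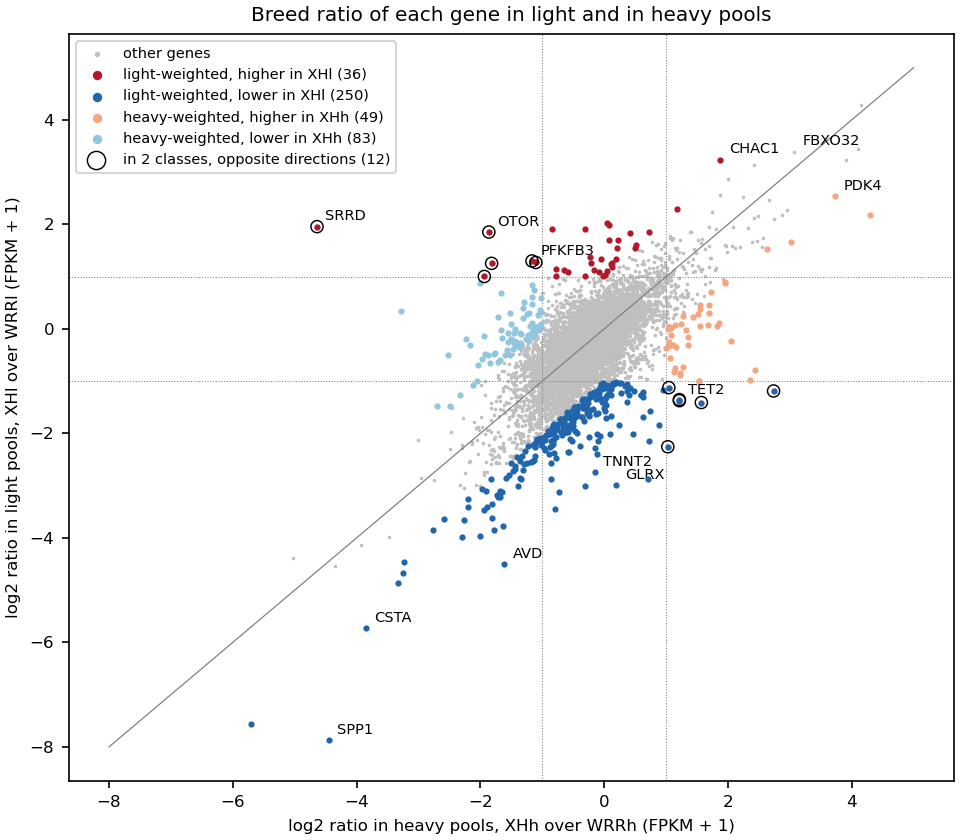
Each point is a gene above 0 in all 4 libraries, with its log2 ratio XHh over WRRh on the x axis and XHl over WRRl on the y axis; the diagonal marks equal ratios and dotted lines mark 2-fold. The 250 genes lower in XHl by a wider margin than in the heavy pools lie under the diagonal, and 12 ringed genes were 2-fold apart in opposite directions.

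FBXO32 and KLHL38, neighbours on chromosome 2, were among the 12 largest ratios of named genes on the higher side, at a mean of at least 5 FPKM. FBXO32 (atrogin-1; chromosome 2, 143695681 to 143720333, in the positions of the tables, whose genome build was not established) was at 236 FPKM in XHl and 21.5 FPKM in WRRl, a ratio of 3.40. In the heavy pools it was at 209 FPKM in XHh and 23.9 FPKM in WRRh. KLHL38, a kelch-family protein (143748478 to 143753282), was at 33.9 FPKM in XHl and 2.99 FPKM in WRRl (3.13). Both Xinghua pools were thus high and both White Rock pools low for this pair of neighbours.

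Of 20 muscle ubiquitin ligase and partner genes tested, 6 were at least 2-fold higher in XHl, against 1.83% of all genes, and 2 were lower. The median was 0.19 against −0.23 over all genes, and −0.03 when overlapping gene models were left out. FBXO32 is not in this count, since the tables give its ID no symbol and its name came from the paper. TRIM63 (MuRF1), which ubiquitinates sarcomere proteins, was at 1127 FPKM in XHl and 373 FPKM in WRRl (1.59), and at 1210 FPKM in XHh and 374 FPKM in WRRh. FBXO30 (MUSA1), another atrophy-linked ligase, was at 71.5 FPKM in XHl and 24.5 FPKM in WRRl. The others were RNF207 (1.48), the deubiquitinase USP2 (1.35), ZFAND5 (1.17) and KLHL38. The lower pair was KBTBD5 (KLHL40), which stabilises thin-filament proteins, at 20.4 FPKM in XHl and 68.2 FPKM in WRRl, and ASB12 at 20.0 FPKM in XHl and 53.9 FPKM in WRRl. The proteasome itself differed little, with 1 of 15 subunit genes 2-fold higher (the activator PSME4, 1.06), none lower and a median of 0.11.

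Transcription factors and stress regulators linked to these ligases were mostly higher. Of 9 genes tested in the FOXO and glucocorticoid-linked list, 5 were at least 2-fold higher and 1 lower. Over all genes these shares were 1.83% and 12.3%. The list median was 1.13, the highest of the lists with at least 5 genes tested. FOXO3 was at 90.9 FPKM in XHl and 30.8 FPKM in WRRl (1.53), and at 92.7 FPKM in XHh and 14.1 FPKM in WRRh. In the paper's qPCR of the same RNA, FOXO3 hardly differed between XHl and WRRl but was higher in XHh than in WRRh. KLF15, a glucocorticoid-induced regulator of amino acid breakdown, was at 72.1 FPKM in XHl and 20.2 FPKM in WRRl (1.79). SESN1, a stress-induced brake on mTORC1, was at 670 FPKM in XHl and 243 FPKM in WRRl (1.46). CEBPB (1.13) and ZBTB16 (1.85) made up the count. SESN3 went the other way, at 1.77 FPKM in XHl and 8.42 FPKM in WRRl.

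Of 27 autophagy genes, 3 were higher and 1 lower, against 1.83% and 12.3% of all genes, with a list median of 0.17. FAM134B, a receptor for autophagy of the endoplasmic reticulum, was at 191 FPKM in XHl and 56.9 FPKM in WRRl (1.73). Its ratio in the heavy pools was 2.57. BNIP3, a mitophagy receptor, was at 233 FPKM in XHl and 106 FPKM in WRRl (1.12), and the phosphoinositide phosphatase MTMR7 at 6.64 FPKM in XHl and 1.12 FPKM in WRRl (1.85). ATG10, an enzyme of ATG12 conjugation, was at 1.22 FPKM in XHl and 4.12 FPKM in WRRl. Most of the list therefore lay within 2-fold.

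The fuel-switch list held genes of both directions. Of its 20 genes tested 4 were higher (PDK4, PNPLA8, ACOT11 and ACSL4), against 1.83% of all genes. Another 4 were lower (LPL, MECR, ACSL5 and ANGPTL4), against 12.3%. With median-of-ratios scaling 4 were higher and 2 lower, against 3.25% and 8.44% of all genes. The median of the list was 0.01, and 0.20 with scaling. PDK4, which shuts pyruvate out of the citric acid cycle, was at 514 FPKM in XHl and 87.1 FPKM in WRRl (2.55), and at 265 FPKM in XHh and 19.0 FPKM in WRRh. The paper's qPCR of the same RNA had PDK4 higher in both Xinghua pools too, by smaller factors. ACACB, which makes the malonyl-CoA that blocks fatty acid entry into mitochondria and which is outside these counts because its name came from the paper, was at 28.5 FPKM in XHl and 4.30 FPKM in WRRl (2.47). PNPLA8, a phospholipase, was at 63.3 FPKM in XHl and 15.8 FPKM in WRRl (1.93). In the heavy pools the ratios of PDK4, ACACB and PNPLA8 were 3.73, 2.67 and 2.33, each above the light one. LPL, which releases fatty acids from blood lipoproteins, was at 15.0 FPKM in XHl and 56.2 FPKM in WRRl.

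The largest ratio of all on the higher side belonged to ENSGALG00000000947 on chromosome 26, which has no symbol, at 482 FPKM in XHl and 23.9 FPKM in WRRl (4.28). Among the other leading higher genes, UTS2R, the urotensin II receptor, was at 19.5 FPKM in XHl and 0.88 FPKM in WRRl (3.45). CHAC1, which degrades glutathione and is induced under amino acid and endoplasmic reticulum stress, was at 409 FPKM in XHl and 42.3 FPKM in WRRl (3.24). Of 16 genes tested in its stress list 2 were higher (CHAC1 and STC2), against 1.83% of all genes. Another 2 were lower (ASNS and ALDH18A1), against 12.3% of all genes, and 1 was lower with scaling. The median of the stress list was 0.06. GLUL, the glutamine synthetase of muscle, whose model overlaps another, was at 244 FPKM in XHl and 49.5 FPKM in WRRl (2.28). DKK2, a Wnt modulator (2.87), and AOX2P (2.30), an aldehyde oxidase, were also among the 12 largest of named genes. Ratios in the heavy pools were 4.10 for UTS2R, 1.88 for CHAC1, 2.95 for GLUL, 2.00 for DKK2 and 1.18 for AOX2P. Of 25 genes in the insulin and IGF signalling list, IGF2BP3 and GRB10 were higher, IGF2BP1 was lower, and the median was 0.16. IGF2BP3 and IGF2BP1 are mRNA-binding proteins, so they do not stand for the signalling itself. With median-of-ratios scaling 4 of the 25 were higher and 0 lower, against 3.25% and 8.44% of all genes.

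**Figure D2:**
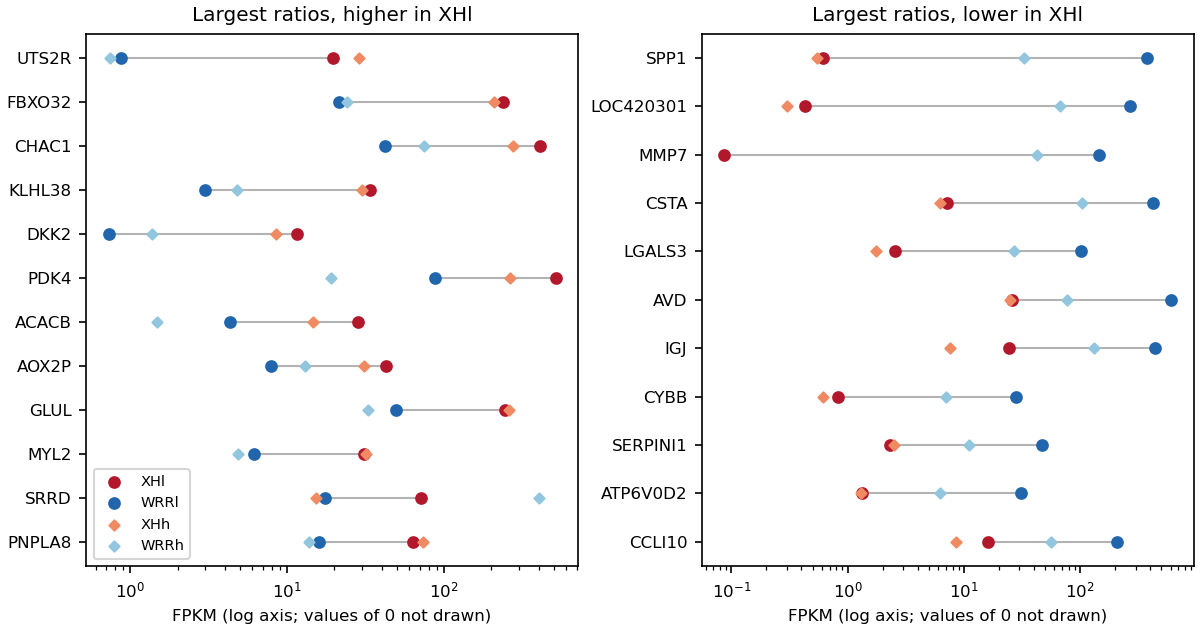
FPKM on a log axis of named genes with the largest ratios in each direction at a mean of at least 5 FPKM, with XHl and WRRl as joined circles and XHh and WRRh as diamonds. FBXO32 lay at 236 FPKM in XHl and 21.5 FPKM in WRRl, and SPP1 at 0.619 FPKM in XHl and 377 FPKM in WRRl.

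The largest differences of all were on the lower side. SPP1 (osteopontin, a secreted matrix protein and cytokine made by macrophages and by bone cells; chromosome 4, 47107502 to 47110531) was at 0.619 FPKM in XHl and 377 FPKM in WRRl (−7.87). In the heavy pools it was at 0.546 FPKM in XHh and 32.6 FPKM in WRRh. MMP7, a matrix metalloprotease, was at 0.0869 FPKM in XHl and 145 FPKM in WRRl (−7.07). For SPP1 and MMP7 alike WRRl was the highest of the 4 libraries. CSTA, an inhibitor of cysteine proteases, was at 7.09 FPKM in XHl and 426 FPKM in WRRl (−5.72). LGALS3, a galectin abundant in macrophages, was at 2.57 FPKM in XHl and 102 FPKM in WRRl (−4.86). Others with large ratios were LOC420301 (−7.55), AVD (avidin, −4.50), IGJ (−4.13), CYBB (−3.98), SERPINI1 (−3.85), ATP6V0D2 (−3.77) and the chemokine CCLI10 (−3.63). The models of LGALS3, AVD and IGJ overlap others, and IGJ is marked as low data.

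Most markers of immune cells were lower. All 16 macrophage and myeloid markers matched in the tables were tested, and 14 were at least 2-fold lower in XHl and none higher, with a median of −2.18 in the light and −1.24 in the heavy pools. Their summed level was 176 FPKM in XHl and 757 FPKM in WRRl, and 126 FPKM in XHh and 318 FPKM in WRRh. CYBB, the catalytic subunit of the phagocyte NADPH oxidase, was at 0.834 FPKM in XHl and 28.0 FPKM in WRRl. MARCO, a scavenger receptor of macrophages, was at 4.45 FPKM in XHl and 31.4 FPKM in WRRl. C1QA, a complement subunit made by macrophages, was at 9.62 FPKM in XHl and 52.5 FPKM in WRRl. None of these markers was at 0 in XHl. For LAPTM5, a gene of the macrophage list, the paper's qPCR of the same RNA differed from its sequencing. By qPCR LAPTM5 was just slightly lower in XHl than in WRRl, and it was higher in XHh than in WRRh.

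T cell markers followed the same direction, with 13 of 15 lower, none higher and a median of −1.50 in the light and −1.44 in the heavy pools. CD3E, a chain of the T cell receptor complex, was at 6.13 FPKM in XHl and 34.2 FPKM in WRRl, and at 4.27 FPKM in XHh and 17.2 FPKM in WRRh. All 4 B cell and plasma cell markers tested were lower. IGJ, the joining chain of secreted antibody, was at 24.4 FPKM in XHl and 443 FPKM in WRRl. Of all genes 12.3% were lower, against most of the members tested in these lists, and the part that immune cells play in the other lower genes was not tested.

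Genes through which immune cells act were lower too. Of 17 chemokine, cytokine and receptor genes, 12 were lower and none higher, among them IL2RG, the shared chain of several cytokine receptors (9.58 FPKM in XHl and 68.4 FPKM in WRRl). Of 16 interferon and antigen processing genes, 10 were lower and none higher, with a median of −1.25 in the light and −0.54 in the heavy pools. IFI30, a lysosomal thiol reductase of antigen processing, was at 30.1 FPKM in XHl and 149 FPKM in WRRl. TAP1, which carries peptides to class I molecules, had a ratio of −1.86. Both lists lay further below the median of all genes in the light than in the heavy pools. The share of all genes lower in XHl was 12.3%.

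Lysosomal genes formed another lower group. Of 29 lysosomal enzymes, 15 were lower and 1 higher, with a median of −1.03, and the count of lower genes was 11 with scaling. Over all genes 12.3% were lower, or 8.44% with scaling, and the median was −0.23. LIPA, the acid lipase, was at 12.9 FPKM in XHl and 125 FPKM in WRRl (−3.18). CTSS, a cathepsin of antigen-presenting cells, was at 43.3 FPKM in XHl and 198 FPKM in WRRl (−2.17). The exception was PLA2G15, a lysosomal phospholipase, at 146 FPKM in XHl and 64.8 FPKM in WRRl. Of 23 membrane and proton pump genes, 8 were lower and none higher. ATP6V0D2 and ATP6V1C2, proton pump subunits with restricted expression, were at 1.34 FPKM and 0.752 FPKM in XHl, against 30.9 FPKM and 20.7 FPKM in WRRl. The ATP6V1C2 model overlaps another. The median of the membrane and pump list was −0.41, with 15 of its 23 genes within 2-fold and 6 lower with scaling. Pump genes were not counted on their own.

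Redox genes were lower in 10 of 28 cases and higher in none (median −0.65), while 12.3% of all genes were lower (median −0.23). Besides CYBB, the lower redox genes included OSGIN1 (6.30 FPKM in XHl and 51.5 FPKM in WRRl). SOD3, the extracellular superoxide dismutase (18.5 FPKM in XHl and 90.9 FPKM in WRRl), was another. The macrophage marker sums given above ran in the same direction as the lysosomal and redox lists, and their part in them was not tested. The lists share members, such as CTSS (macrophage and lysosomal) and CYBB (macrophage and redox), so part of this likeness is built in.

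Matrix genes of fibroblasts were lower in XHl as well. Of 30 tested, 22 were lower and none higher, with a median of −1.52 in the light and −0.86 in the heavy pools, and 19 were lower with scaling. Over all genes 12.3% were lower, or 8.44% with scaling, and the light median was −0.23. FN1, fibronectin, whose model overlaps another, was at 20.5 FPKM in XHl and 157 FPKM in WRRl (−2.88). In the heavy pools FN1 was at 26.9 FPKM in XHh and 69.6 FPKM in WRRh. COL1A1, the main chain of type I collagen, was at 455 FPKM in XHl and 1270.2 FPKM in WRRl (−1.48). LUM, a collagen-binding proteoglycan, was at 68.5 FPKM in XHl and 244 FPKM in WRRl. Adhesion and actin linker genes were lower in 16 of 23 cases and higher in none. CD44, a hyaluronan receptor, was at 9.34 FPKM in XHl and 44.1 FPKM in WRRl, and the actin-severing protein SCIN at 4.49 FPKM in XHl and 50.3 FPKM in WRRl. ANXA2, a calcium-dependent membrane linker, was at 53.4 FPKM in XHl and 250 FPKM in WRRl, and 4 of the 5 annexins and galectins tested were lower.

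Other cell types differed less. The counts below stand beside 12.3% of all genes lower and 1.83% higher, with a median of −0.23. Of 11 adipocyte markers 5 were lower, among them PLIN1, the lipid droplet coat of fat cells, at 0.583 FPKM in XHl and 10.7 FPKM in WRRl. Of 9 endothelial markers 1 was lower, near the share of all genes (CLDN5, a tight junction protein whose model overlaps another). No marker passed 2-fold among 8 of smooth muscle and 6 of Schwann cells, but 1 in each list was 2-fold higher with scaling. Just 2 red cell markers could be tested, and both lay within 2-fold. Of 16 cell cycle genes 5 were lower, including the nucleotide synthesis genes TK1 and RRM2. Their median was −0.88 in the light and −0.38 in the heavy pools. With scaling 3 cell cycle genes and 4 adipocyte markers were lower, against 8.44% of all genes. Of 3 liver and plasma protein markers tested 1 was lower. It was APOA1, a lipoprotein made in chicken muscle as well as in liver, was at 963 FPKM in XHl and 3375 FPKM in WRRl.

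**Figure D3:**
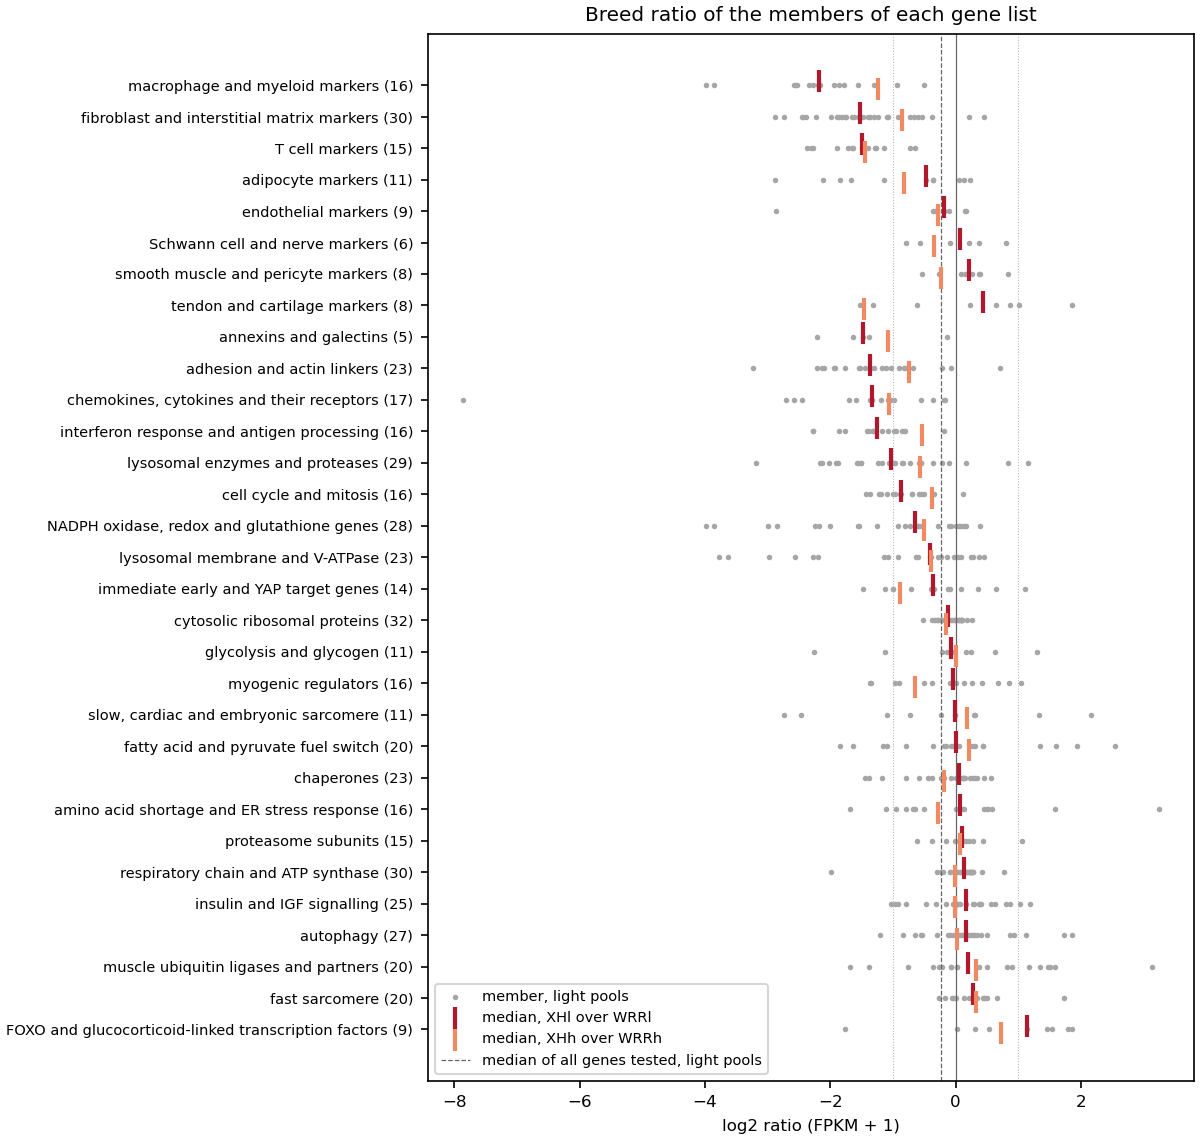
Each grey point is a member's log2 ratio XHl over WRRl, by gene list with the number tested in brackets; dark bars mark list medians in the light pools, pale bars those in the heavy pools, and the dashed line the median of all genes. Macrophage markers had a median of −2.18 and FOXO-linked factors one of 1.13.

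Few housekeeping and fibre genes passed 2-fold. None of the 32 ribosomal protein genes was 2-fold apart (median −0.12, between 0.11 and 0.13 with another scaling). Of 30 respiratory chain genes 1 was (COX7A2, −1.98), and of 20 genes in the fast sarcomere list 1 was (MYBPC1). MYBPC1 is the slow form of myosin-binding protein C, so it does not stand for fast fibres. It was at 20.0 FPKM in XHl and 5.35 FPKM in WRRl, and was listed at 21.7 FPKM in XHh and 0 in WRRh. The fast sarcomere median was 0.28, above that of all genes, with 14 of the 20 above 0. The medians of ribosomal, endothelial, glycolysis, myogenic and slow sarcomere genes changed sign with at least 1 scaling, so no direction is given for them. Of 23 chaperone genes 3 were lower, among them the collagen chaperone SERPINH1 (−1.38). Of 14 immediate early genes 1 was higher (BTG2) and 2 were lower (DUSP8 and CYR61). Both counts of lower genes lay near the 12.3% of all genes that were lower. Of 11 genes in the glycolysis and glycogen list PFKFB3 was higher, and LDHB and the pentose phosphate enzyme TKT were lower. Shares over all genes were 1.83% and 12.3%. With median-of-ratios scaling 1 of the 11 was higher and 1 lower.

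Of 16 myogenic regulators tested, 1 was higher and 2 were lower, against 1.83% and 12.3% of all genes. Here SMYD1, a sarcomere assembly methyltransferase, was at 265 FPKM in XHl and 128 FPKM in WRRl. MYOD1, the muscle-determining transcription factor, is outside that count because its name came from the paper, and was at 314 FPKM in XHl and 113 FPKM in WRRl. FSTL1 and FST were the lower ones. FST, follistatin, which binds myostatin, was at 6.95 FPKM in XHl and 19.4 FPKM in WRRl.

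Slow, cardiac and embryonic sarcomere genes split. MYL2, the slow myosin light chain, was at 30.7 FPKM in XHl and 6.12 FPKM in WRRl, and at 31.8 FPKM in XHh and 4.88 FPKM in WRRh. TNNT2, the cardiac troponin T that is also made in immature fibres, was at 2.78 FPKM in XHl and 24.2 FPKM in WRRl, and at 2.51 FPKM in XHh and 2.90 FPKM in WRRh. TNNI1, slow troponin I, was at 0.930 FPKM in XHl and 9.66 FPKM in WRRl, and at 1.43 FPKM in XHh and 3.16 FPKM in WRRh. For both troponins WRRl stood apart from the other 3 libraries.

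That raised the question of which breed differences belonged to the light pools. A gene was called light-weighted when it was at least 2-fold apart in the light pools and its light ratio passed its heavy ratio by at least 1 in the same direction. Of 10356 genes above 0 in all 4 libraries, 36 were light-weighted and higher in XHl (0.348%) and 250 light-weighted and lower (2.41%). Turned round, 49 were heavy-weighted and higher in XHh (0.473%) and 83 heavy-weighted and lower (0.801%). The difference of 2 ratios from 4 single pools could not be tested.

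Most of the lower light-weighted genes differed more between the White Rock pools. In 212 of the 250 (84.8%) the White Rock pools differed from each other by more than the Xinghua pools did, against 57.3% of all 10356 genes, 47.2% of the light-weighted higher genes and 63.3% and 51.8% of the heavy-weighted higher and lower ones. These shares use the ratios that chose the genes. The median ratio of the 250 was 1.15 for WRRl over WRRh and −0.17 for XHl over XHh. Over all 10356 genes, 308 were at least 2-fold higher in WRRl than in WRRh (2.97%) and 70 lower, against 72 higher (0.695%) and 46 lower in XHl than in XHh. SERPINI1, the protease inhibitor neuroserpin, showed the pattern, at 2.31 FPKM in XHl, 46.7 FPKM in WRRl, 2.53 FPKM in XHh and 11.1 FPKM in WRRh. The macrophage marker sum was also highest in WRRl, and its part in this pattern was not tested.

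Some of these genes were also at least 2-fold lower in XHl than in XHh. GLRX, a glutaredoxin that removes glutathione from proteins, was at 28.8 FPKM in XHl and 236 FPKM in WRRl, and at 130 FPKM in XHh and 114 FPKM in WRRh. GNG10, a G protein subunit, had a ratio of −1.67 in the light and 0.12 in the heavy pools, at 3.10 FPKM in XHl and 9.87 FPKM in XHh. TET2, which oxidises methylcytosine, was at 4.05 FPKM in XHl and 12.1 FPKM in WRRl, and at 15.1 FPKM in XHh and 5.92 FPKM in WRRh. In all, 25 of the 250 were at least 2-fold lower in XHl than in XHh.

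Genes light-weighted and higher in XHl were fewer. PFKFB3, which makes the activator of glycolysis fructose 2,6-bisphosphate, was at 189 FPKM in XHl and 76.3 FPKM in WRRl, and at 43.5 FPKM in XHh and 98.8 FPKM in WRRh. BTG2, an antiproliferative immediate early gene, was at 293 FPKM in XHl and 135 FPKM in WRRl, and at 177 FPKM in XHh and 171 FPKM in WRRh. ABRA, an actin-binding protein of striated muscle, was at 189 FPKM in XHl and 88.5 FPKM in WRRl, and at 84.3 FPKM in XHh and 127 FPKM in WRRh. XHl was the highest of the 4 libraries for these 3 genes. The circadian deadenylase CCRN4L (1.26 in the light and 0.14 in the heavy pools), ZBTB16, CHAC1, NKIRAS1, AOX2P and the transporter SLC16A9 were also in this group.

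Of 8 tendon and cartilage markers tested 2 were higher (FMOD and OTOR) and 2 lower (COMP and CHAD) in the light pools. Shares over all genes were 1.83% and 12.3%. The list median was 0.43 in the light and −1.47 in the heavy pools. FMOD, fibromodulin of tendon, was at 12.4 FPKM in XHl and 5.70 FPKM in WRRl, and at 3.25 FPKM in XHh and 15.2 FPKM in WRRh. OTOR, a small secreted protein of cartilage, was at 19.3 FPKM in XHl and 4.61 FPKM in WRRl, and at 2.75 FPKM in XHh and 12.6 FPKM in WRRh. TNMD, tenomodulin, was within 2-fold in the light pools, at 7.18 FPKM in XHl and 3.47 FPKM in WRRl, and at 1.34 FPKM in XHh and 8.35 FPKM in WRRh. XHl and WRRh were the higher libraries for these 3 genes. COMP, a cartilage and tendon matrix protein, was by contrast lower in both Xinghua pools (69.2 FPKM in XHl and 202 FPKM in WRRl).

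**Figure D4:**
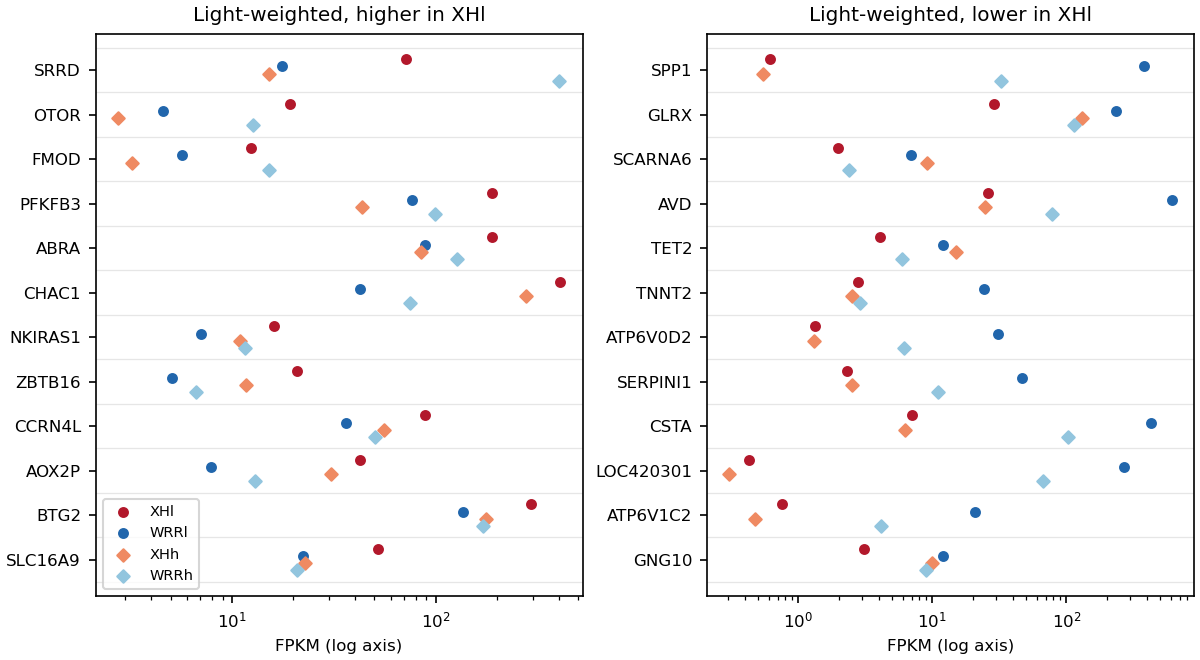
FPKM on a log axis of the 12 named light-weighted genes in each direction with the largest difference between light and heavy ratios, in XHl, WRRl, XHh and WRRh. TNNT2 was at 24.2 FPKM in WRRl and at 2.90 FPKM or less in the other libraries.

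Genes listed at 0 in 1 light pool were given no ratio, since a 0 can be a failed estimate. Altogether 58 genes were at 0 in XHl and at 5 FPKM or more in WRRl, and 62 were at 0 in WRRl and at 5 FPKM or more in XHl. Many of the highest were IDs without a symbol or small RNAs. ENSGALG00000014442 was listed at 0 in XHl and 25532 FPKM in WRRl, in a row the tables mark as too deep to estimate. Of genes with a symbol, 3 are given here, picked after their values were seen. HMGA2, a chromatin protein of embryonic tissue, was listed at 34.5 FPKM in WRRl and at 0 in the other 3 libraries. EX-FABP, a lipocalin, was listed at 0 in XHl and 39.3 FPKM in WRRl. JSRP1, a protein of the muscle calcium release complex, was listed at 112 FPKM in XHl and 0 in WRRl, but at 84.7 FPKM in XHh and 189 FPKM in WRRh. The JSRP1 model overlaps others listed at the same position, among them SF3A2, which was likewise at 0 in WRRl alone.

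By position, chromosome 16, which holds the chicken major histocompatibility complex, stood apart. Of its 38 genes tested, 17 were lower (44.7%) and the median was −0.67, while the other 28 chromosomes with at least 30 genes tested had between 7.97% and 17.2% lower and medians of −0.39 to −0.15. With median-of-ratios scaling 13 of the 38 were lower in XHl (34.2%). In the heavy pools 7 of the 38 were lower (18.4%). The 12 genes before BRD2 (1370 to 71353) had 10 lower and a median of −1.42, against 7 of 26 and −0.23 from BRD2 on (72249 to 415279). With scaling 7 of the 12 and 6 of the 26 were lower. In the heavy pools 5 of the 12 (median −0.81) and 2 of the 26 (median −0.19) were lower. A run of 8 lower genes at the immunoglobulin light chain locus of chromosome 15 (8172120 to 8203710) had a median of −4.42, and the neighbours C1QA, C1QB and C1QC on chromosome 21 were all lower. The segment and the runs were picked after their values were seen.

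A cluster of 29 histone genes on chromosome 1 (49943673 to 50049131) held 14 of the 193 higher genes, and was also picked after its values were seen. Of 28 genes tested, 14 were at least 2-fold higher in XHl, against 1.83% of all genes. The 14 were all 7 H2B genes (29.6 to 53.9 FPKM in XHl and 4.09 to 15.9 FPKM in WRRl), all 5 H4 genes tested and 2 of 8 H2A genes. No H1 or H3 gene passed 2-fold in the light pools, and H3 genes had a median of 0.12. In the heavy pools 9 genes of the cluster were at least 2-fold higher in XHh, against 1.93% of all genes. Those were 4 H2B, 2 H4, 2 H1 and 1 H2A genes. The cluster median was 1.00 in the light and 0.76 in the heavy pools. Histone genes are near-identical copies and their transcripts mostly lack a poly(A) tail, so their values are uncertain.

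**Figure D5:**
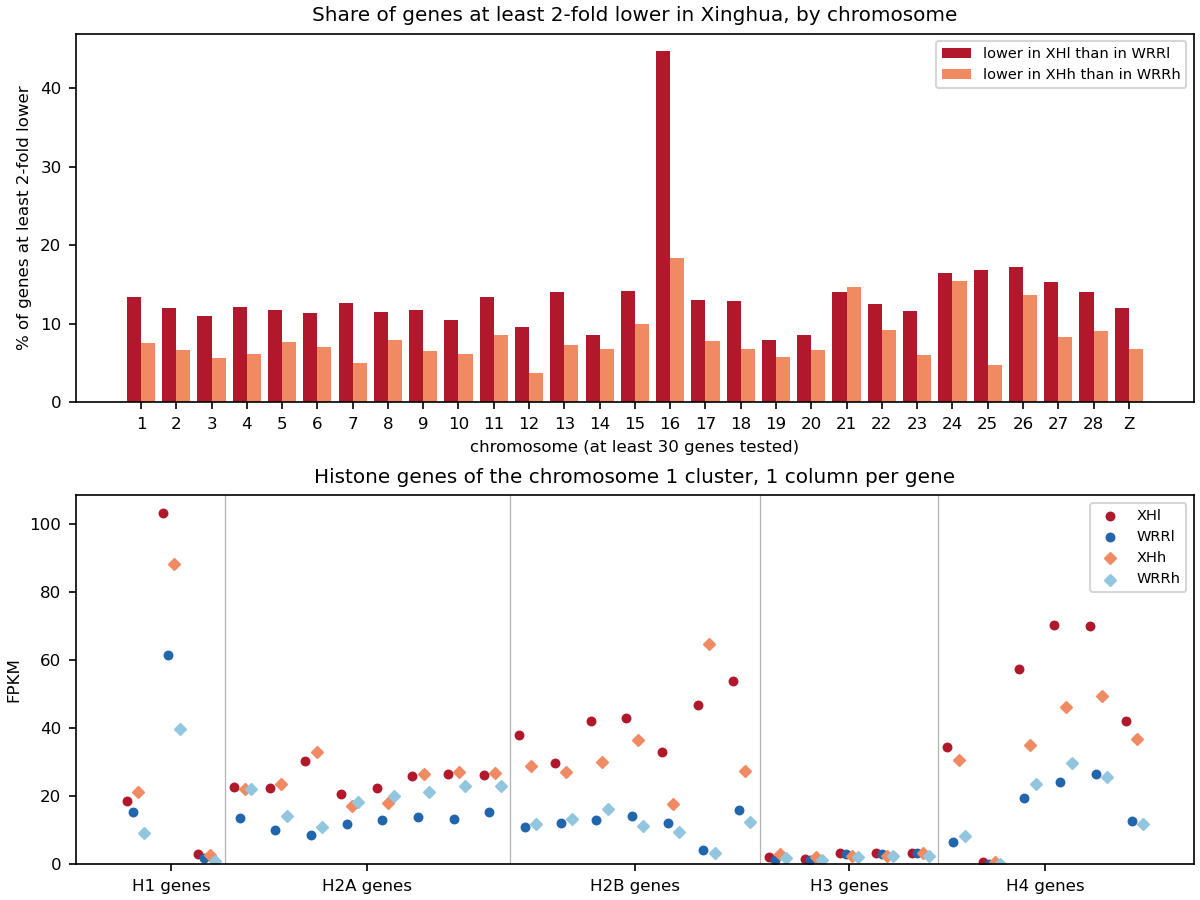
Above, the percentage of genes at least 2-fold lower in XHl than in WRRl, and in XHh than in WRRh, for chromosomes with at least 30 genes tested; below, the FPKM of each histone gene of the chromosome 1 cluster in the 4 libraries. Chromosome 16 reached 44.7% in the light and 18.4% in the heavy pools.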

How the data were processed

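Breast muscle RNA of 3 female birds per group was mixed into 1 pool by the authors, and each of the 4 pools gave 1 library. Mapping was by TopHat on Ensembl's chicken genome (limit of 2 mismatches), after a quality filter. The authors deposited FPKM values per gene, which are scaled for gene length and library depth, in 4 tables of 1 pair of libraries each. The submitters' notes name the assembly galGal4 and no TopHat version (not given in the sources used here). Which build the gene positions follow could not be settled, so they are printed as listed. The deposited tables also hold the authors' own log2 fold changes, test statistics, p-values, q-values and calls, none of which was used here.

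Ratios were computed in Python 3.11.15 with pandas 2.3.3 and numpy 2.4.6 as log2(FPKM + 1) of XHl minus that of WRRl, over genes above 0 in both whose mean reached 1 FPKM, and were given no p-value because each side is 1 pool. A log2 ratio of at least 1 in size was counted as at least 2-fold. A library listed at 0 in just 1 of its 2 tables took the other value (43 genes in XHl, 15 in WRRl, 11 in XHh and 0 in WRRh). Ratios were repeated after median-of-ratios scaling. Read counts were not in the tables, so the precision of each FPKM value is unknown, but low FPKM values moved in steps of 1 fragment, from which relative depth was read. The scripts were tested on simulated data.

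Genes were named as those with the 12 largest ratios per direction at a mean of at least 5 FPKM, the 12 light-weighted genes per direction with the largest difference between light and heavy ratios, up to 10 per direction listed at 0 in 1 light pool, genes in opposite directions in light and heavy pools, and members of 34 gene lists. Genes taken by size of ratio, as light-weighted or by a 0 in 1 pool had to have a symbol from the sources given below. The comparison, the lists and the rules were chosen with earlier results of these data known. Names came from the tables (9347 genes), from UniProt entry names in the tables (116 genes, in part through a map of entry names made by hand after values were seen) or from the paper (35 genes). Of 1189 listed genes 624 were matched and counted, and 19 more that just the paper names were left out of the list counts, since the paper names only genes it selected. Promoter motifs were not analysed here, and 1 gene that the rule names is not reported here. The alternatives tried were 4 scalings, 2 pseudocounts, 3 filters, values as each table lists them and leaving out overlapping gene models.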

Additional observations from a re-analysis of the deposited data

Results flagged for a closer look

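In 12 genes the breeds were at least 2-fold apart in opposite directions in the light and in the heavy pools. With median-of-ratios factors 9 of the 12 remained, without PFKFB3, ENSGALG00000023132 and ENSGALG00000023479. With quantile normalization 7 remained, without those unnamed IDs, ENSGALG00000012182, SCARNA6 and TET2. With a pseudocount of 5 there were 4. With 1 pool per group the difference was not tested, and a single bird could set any of these values. The difference given is the light log2 ratio minus the heavy one. Higher in XHl than in WRRl but lower in XHh than in WRRh were SRRD (6.60), OTOR (3.72), GREM1 (3.07), FMOD (2.94), PFKFB3 (2.47) and the unnamed ENSGALG00000023479 (2.37). SRRD, whose model overlaps another, was at 71.0 FPKM in XHl and 17.5 FPKM in WRRl, and at 15.2 FPKM in XHh and 404 FPKM in WRRh. GREM1, a secreted BMP antagonist, was at 7.48 FPKM in XHl and 2.55 FPKM in WRRl, and at 0.623 FPKM in XHh and 4.72 FPKM in WRRh. Lower in XHl than in WRRl but higher in XHh than in WRRh were SCARNA6 (−2.98), TET2 (−2.59) and the unnamed ENSGALG00000023132 (−3.93), ENSGALG00000020044 (−3.29), ENSGALG00000025636 (−2.57) and ENSGALG00000012182 (−2.17).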

How the results depend on the processing

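The main counts were 193 genes higher, 1294 lower, 36 light-weighted higher and 250 light-weighted lower. None of 39 genes named by size of ratio changed direction in any alternative that could test it. There were 38 such genes with a minimum of 5 FPKM and 32 without overlapping models. All 39 were picked for ratios of at least 2-fold, and filters and pseudocounts cannot change a sign, so this is little check of direction. The other genes named were not rerun one by one. Higher genes numbered 341 with median-of-ratios factors, 390 with quantile normalization, 329 with equal FPKM sums, 345 when centred on the median and 112 with a pseudocount of 5. Lower genes numbered 885 with median-of-ratios factors, 664 with quantile normalization, 916 with equal FPKM sums and 842 when centred. They numbered 484 with a pseudocount of 5 and 1827 with one of 0.1. With a minimum mean of 5 FPKM there were 795, and with genes at 0 kept 1390. Smaller shifts are left out of these lists. Light-weighted higher genes numbered 71 with quantile normalization, 80 with equal sums, 69 with a pseudocount of 0.1, 14 with a pseudocount of 5, 22 with a minimum of 5 FPKM and 82 with genes at 0 kept. Light-weighted lower genes numbered 133 with equal sums, 412 with a pseudocount of 0.1, 67 with a pseudocount of 5 and 120 with a minimum of 5 FPKM. A pseudocount of 5 shrinks every ratio and one of 0.1 widens it. The minimum of 5 FPKM leaves fewer genes to count, and keeping genes at 0 leaves more. What else lay behind these shifts was not tested. SCARNA6 and TET2 came under 2-fold with quantile normalization, and with FMOD and NKIRAS1 under a pseudocount of 5. No paired analysis was possible because each group is 1 library, and no replicate could be left out.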
